A study of Homo sapiens with 6 samples.

Results

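A set of 10 genes of the NRF2 pathway and of antioxidant defence was followed in TPC1 cells after knockdown of SRPX2. They are NFE2L2, KEAP1, NQO1, HMOX1, GCLC, GCLM, TXNRD1, SRXN1, SLC7A11 and SOD2. They were picked by gene name from a table of 31348 genes, and all 10 were present and passed the expression filter, a mean of at least 0.5 FPKM (fragments scaled to transcript length and library size), which 13317 genes passed. TPC1 is a human papillary thyroid carcinoma line. The study sequenced RNA from 3 libraries of cells transfected with si-Control and 3 with si-SRPX2, a small interfering RNA against the secreted sushi-repeat protein SRPX2, to look for genes that follow SRPX2. All 6 libraries carry the label WT for genotype and come from 1 cell line. The labels also give day 2, an adipogenic treatment and DMEM, which differ from the paper's account of the same experiment, so samples were assigned by their titles. Each siRNA group has replicates 1, 2 and 3, biological repeats by the paper's account, and no source says what a shared number marks.

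NRF2, encoded by NFE2L2, is a transcription factor that KEAP1 holds in the cytoplasm and delivers for degradation. Oxidants and electrophiles modify KEAP1, and NRF2 then gathers in the nucleus and binds antioxidant response elements near genes for glutathione synthesis, thioredoxin recycling, quinone reduction and heme breakdown. Because NRF2 is controlled mainly through the stability of its protein, the level of NFE2L2 RNA is a weak guide to its activity, and the RNA of its targets is the usual readout. In thyroid cells, which make hydrogen peroxide to build thyroid hormone, these genes are part of the normal defence against peroxide.

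The libraries held between 63824315 and 75828542 counted reads, and the counts of the 10 genes lay between 1961 and 135880 reads. Counting error is therefore small beside the larger differences between libraries, but not beside folds very close to 1 within a pair. SRPX2 itself was low, at 3.94, 4.43 and 4.42 CPM (read counts scaled to library size, with TMM factors) in si-Control replicates 1 to 3 and 1.93, 2.13 and 3.82 in the si-SRPX2 libraries of the same numbers. All 3 si-SRPX2 libraries were below all 3 si-Control libraries (two-sided exact permutation test, p = 0.1, the smallest that 3 against 3 allows). Replicate 3 was the least reduced, at 0.865 of its control. SRPX2 averaged 0.407 FPKM, below the filter, so it was not among the tested genes. In edgeR without the filter its log2 fold change was −0.71 ± 0.328 (SE, unadjusted p = 0.0683), not a call. Adding replicate number to that fit gave −0.76 ± 0.241 (unadjusted p = 0.0219, adjusted p = 0.835), again not a call. Of the thyroid follicular markers, PAX8, FOXE1 and HHEX passed the filter and TG did not, the epithelial keratins KRT8, KRT18 and KRT7 passed while CDH1, EPCAM and KRT19 did not, and the adipocyte marker list was represented by PPARG alone among tested genes, with its summed level between 2.23 and 3.38 FPKM. Same-numbered libraries resembled each other more than libraries of the same siRNA did, and both replicate 2 libraries stood apart, with 50.9% of tested genes differing from replicates 1 and 3 (edgeR, adjusted p under 0.05). The siRNA values are therefore given without and with the replicate number as a block.

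Per transcript length, NQO1 was the most abundant of the 10, with a mean of 188.8 FPKM and a range of 143 to 232 over the 6 libraries. It codes for a quinone reductase, and its mean stood at percentile 99.0 of all tested genes. TXNRD1 followed at 86.7 FPKM, then SOD2 at 60.7, HMOX1 at 41.9, SRXN1 at 34.0, NFE2L2 at 24.6, GCLM at 13.6, KEAP1 at 11.3, SLC7A11 at 7.79 and GCLC at 4.32. The library ranges of neighbours in this order overlapped except between NQO1 and TXNRD1 and between NFE2L2 and GCLM, so the order of the other neighbours is not set apart from their spread. GCLC, the lowest, was still near the middle of all tested genes, at percentile 46.2.

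**Figure D1:**
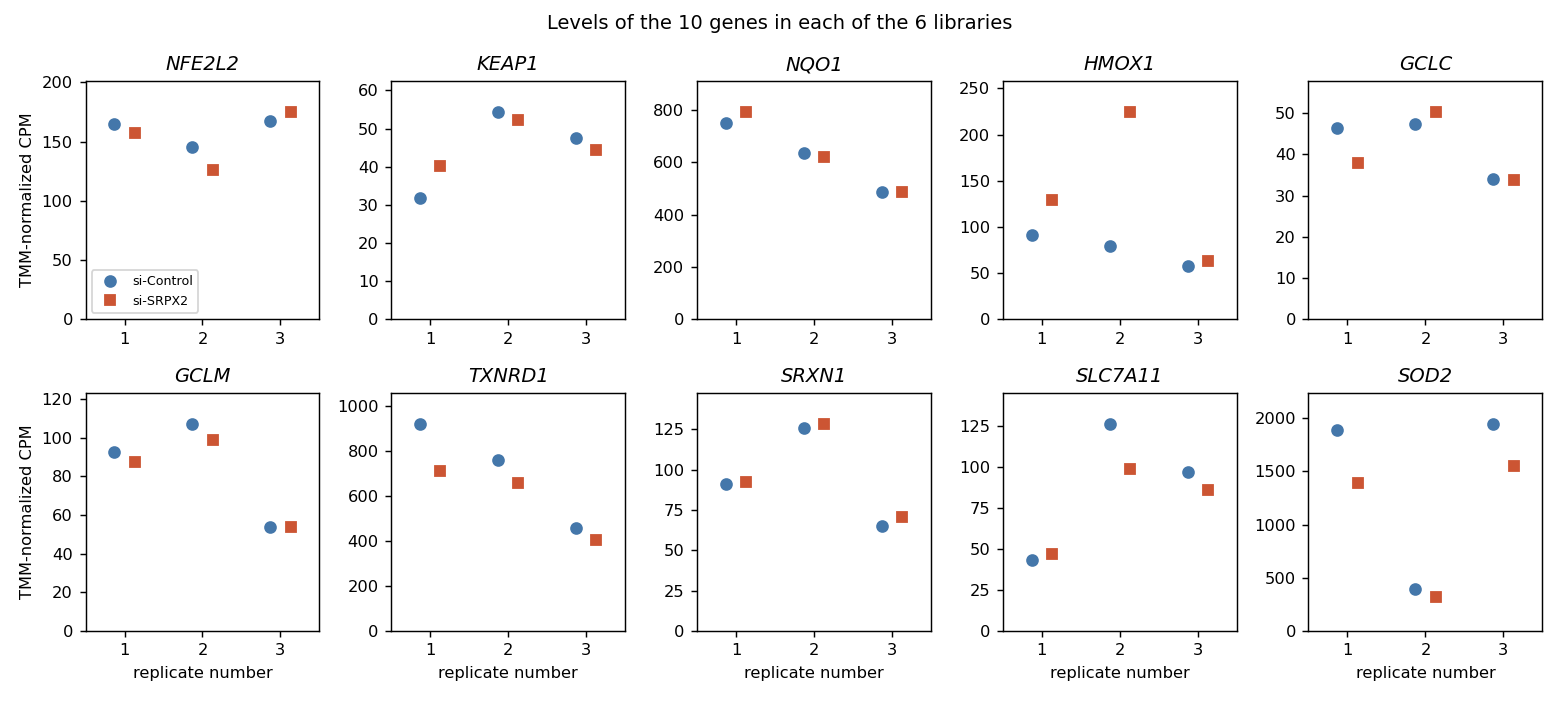
TMM-normalized CPM (vertical axis, linear and starting at 0) of each of the 10 genes in the si-Control (circles) and si-SRPX2 (squares) libraries, by replicate number. SOD2 is low in both replicate 2 libraries, HMOX1 is highest in si-SRPX2 replicate 2 at 224 CPM, and for most genes the squares lie beside the circles of the same number.

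Stretches around sequence matches are shown for the genes whose start windows hold the short core of the antioxidant response element, TGACNNNGC. Windows from 250 bases before to 50 bases after annotated starts were taken from RefSeq on GRCh38.p14 and searched on both strands. Of the 10 genes, 8 had entries, with 14 windows, and 4 of these windows held the core, belonging to GCLM, TXNRD1 (2 windows) and KEAP1. The core occurs in 13.3% of all 35116 windows, so matches are common, and a match is only a description of the letters. The longer form TGACTCAGC was found in 0.561% of all windows and in none of the 14. The 4 windows held 6 matches. The stretches below show 1 match of each gene at its centre, chosen after the sequences were seen, and read in the direction of the gene with every match in capitals. The central match of all 3 lies on the opposite strand and so reads as the reverse complement of the core. The KEAP1 stretch also holds TGACACGGC on the strand of the gene, and the upstream TXNRD1 window, not printed, holds TGACTTCGC on that strand and TGACGGAGC on the opposite one. GCLM lies at chr1:93909411-93909509 on the minus strand, TXNRD1 at chr12:104286885-104286983 on the plus strand at its downstream start, and KEAP1 at chr19:10502749-10502847 on the minus strand.
GCLM: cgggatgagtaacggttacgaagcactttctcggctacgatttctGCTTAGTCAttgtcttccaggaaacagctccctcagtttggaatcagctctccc
TXNRD1: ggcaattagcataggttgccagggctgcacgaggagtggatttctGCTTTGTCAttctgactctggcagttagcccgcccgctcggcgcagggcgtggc
KEAP1: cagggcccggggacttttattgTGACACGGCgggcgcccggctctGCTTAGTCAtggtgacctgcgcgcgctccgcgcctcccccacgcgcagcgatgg

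No gene of the 10 passed the test for si-SRPX2 against si-Control, in a comparison where 0 of 13317 genes did (0% called, edgeR quasi-likelihood test, adjusted p under 0.05). At an unadjusted p under 0.05 the test gave 66 genes, 0.496% of those tested, and none of the 10, and DESeq2 called 3 genes (0.0225%) and none of the 10. With the replicate block edgeR called 6 genes (0.0451%), again without a member, and 1226 had an unadjusted p under 0.05 (9.21%), among them HMOX1, SOD2 and TXNRD1. DESeq2 with the same block called 89 genes (0.668%), and SOD2 and TXNRD1 were among them, while limma with the block called 0 genes. None of the 10 had si-Control and si-SRPX2 libraries that did not overlap, against 3.24% of tested genes, and the exact permutation test gave p between 0.3 and 1.0 for each. Within the 3 pairs, HMOX1 and SRXN1 were higher with si-SRPX2 in 3 of 3 and SOD2 and TXNRD1 lower in 3 of 3, where 15.5% and 16.9% of tested genes were. The median log2 fold change of the 10 was −0.064, beside −0.0062 for all tested genes.

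NFE2L2 (ENSG00000116044), on chromosome 2 from 177227595 to 177287777, codes for NRF2. Its level was 165, 145 and 168 CPM in si-Control replicates 1, 2 and 3 and 157, 126 and 175 CPM in the si-SRPX2 libraries. Both replicate 2 libraries were the lowest of their groups, and the highest library was only 1.39 times the lowest, the narrowest range of the 10. Between the siRNAs the log2 fold change was −0.060 ± 0.153 (SE, edgeR, adjusted p = 1.0, as for each of the 10) and −0.070 ± 0.0636 with the block (adjusted p = 0.750). Replicate 2 lay below replicates 1 and 3 by −0.29 ± 0.0682 (edgeR, adjusted p = 0.00766), a call that was lost without the expression filter, in limma with either pseudocount and without si-SRPX2 replicate 2 (adjusted p = 0.118). AGPS, on the other strand, starts at 177392644, beyond the NFE2L2 span given above. It overlaps only a longer annotated span of NFE2L2 that runs to 177392697. Whether counting used strand is not given in the sources used here.

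KEAP1 (ENSG00000079999, chromosome 19, 10486125 to 10503356) codes for the adaptor that sends NRF2 to the CUL3 ubiquitin ligase. It was counted at 31.8, 54.3 and 47.4 CPM in si-Control and at 40.2, 52.2 and 44.4 CPM in si-SRPX2. Replicate 1 was the lowest number in both groups and replicate 2 the highest, and no siRNA direction held over the pairs. The siRNA log2 fold change was 0.034 ± 0.222 and 0.060 ± 0.0966 with the block. KEAP1 rose in replicate 2 by 0.39 ± 0.101 (edgeR, adjusted p = 0.0122), so the RNAs of NRF2 and of its inhibitor moved in opposite directions in these libraries. Without si-Control replicate 2 the KEAP1 difference was 0.30 (adjusted p = 0.0929).

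Other regulators of NRF2 gave no call between the siRNAs either. Of 17 partners and regulators, all tested, 10 were higher and 7 lower with si-SRPX2, with a median of 0.0073, and with the block 1 had an unadjusted p under 0.05. The 2 of smallest p without the block were NFE2L3, a relative of NRF2, at −0.22 ± 0.190 and DPP3, which competes with NRF2 for KEAP1, at 0.17 ± 0.152. Between replicate numbers 4 of the 17 rose and 5 fell in replicate 2, where 25.4% of all tested genes rose and 25.5% fell, so these shares are near those of all genes. SQSTM1, whose protein p62 draws KEAP1 into autophagy and whose gene is itself an NRF2 target, fell by 0.69 in replicate 2 (SE 0.0929, adjusted p = 0.000466) and was lower in replicate 1 than in replicate 3 by −0.87 ± 0.105 (adjusted p = 0.00195), and it was named after its values were seen.

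GCLC and GCLM code for the catalytic and modifier subunits of glutamate-cysteine ligase, which makes the first bond of glutathione. GCLC (ENSG00000001084, chromosome 6, 53497341 to 53616970) was counted at 46.3, 47.5 and 33.9 CPM in si-Control and 37.9, 50.3 and 33.7 CPM in si-SRPX2. GCLM (ENSG00000023909, chromosome 1, 93885199 to 93909456) was counted at 92.5, 107 and 53.7 CPM in si-Control and 87.4, 98.6 and 54.0 CPM in si-SRPX2. For both subunits replicate 3 was lowest and replicate 2 highest in each siRNA group, and the siRNA groups overlapped throughout. For si-SRPX2 against si-Control GCLC had a log2 fold change of −0.068 ± 0.208 and GCLM of −0.079 ± 0.318, and with the block −0.072 ± 0.0901 and −0.066 ± 0.0563. GCLM rose in replicate 2 by 0.56 ± 0.0585 (edgeR, adjusted p = 0.000116) and was higher in replicate 1 than in replicate 3 by 0.74 ± 0.0694 (adjusted p = 0.000692). GCLC rose less in replicate 2, by 0.38 ± 0.0941 (adjusted p = 0.0106, and 0.159 without si-SRPX2 replicate 2), and its difference between replicates 1 and 3, 0.31 ± 0.111, missed the threshold (adjusted p = 0.0926).

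SLC7A11 (ENSG00000151012, chromosome 4, 138164097 to 138242349) codes for the light chain of the cystine and glutamate exchanger xCT, which brings in the cystine that glutathione is made from. Its level was 43.5, 127 and 97.1 CPM in si-Control and 46.8, 99.1 and 86.4 CPM in si-SRPX2. Replicate 1 held the lowest library of each group, less than any library of the other numbers. Its siRNA difference on the log2 scale was −0.20 ± 0.433, and −0.14 ± 0.0847 with the block (unadjusted p = 0.132, adjusted p = 0.636). SLC7A11 rose in replicate 2 by 0.80 ± 0.0874 (edgeR, adjusted p = 0.000150), as the ligase subunits did, but was lower in replicate 1 than in replicate 3 by −1.02 ± 0.105 (adjusted p = 0.00109), where GCLM was higher.

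SLC7A11 is also a known target of ATF4, the transcription factor of the amino acid and endoplasmic reticulum stress response. Of 14 other genes for ATF4 and its targets, 10 were lower and 2 higher in replicate 1 than in replicate 3 at an adjusted p under 0.05, with a median of −0.56 over the 14. All tested genes had a median near 0, with 7.3% called lower and 8.81% called higher. ASNS, asparagine synthetase, was at 13.5, 23.8 and 51.0 CPM in si-Control and 12.9, 23.6 and 48.9 CPM in si-SRPX2, a difference of −1.92 ± 0.107 between replicates 1 and 3 (adjusted p = 7.19e-05), and was named after its values were seen. In replicate 2, by contrast, 8 of the 14 fell and none rose, beside 25.5% and 25.4% of all tested genes, while SLC7A11 rose. SLC3A2, the heavy chain that xCT needs at the membrane, passed the threshold in neither contrast, at 0.093 ± 0.0613 and 0.16 ± 0.071.

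In the wider glutathione system, 13 of 17 listed genes were tested. With si-SRPX2 4 were higher and 9 lower, none called, and the smallest p belonged to GSR, glutathione reductase, at −0.27 ± 0.188. Between replicate numbers 5 of the 13 rose and 5 fell in replicate 2, beside 25.4% and 25.5% of all tested genes. GPX4, the peroxidase that protects membrane lipids with glutathione, fell there by −1.05 ± 0.0672 (edgeR, adjusted p = 1.55e-05), while CHAC2, which breaks glutathione down, rose by 1.74 ± 0.160 (adjusted p = 6.63e-05).

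TXNRD1 (ENSG00000198431, chromosome 12, 104215779 to 104350307) codes for the cytosolic thioredoxin reductase. It was counted at 922, 761 and 456 CPM in si-Control and at 713, 659 and 403 CPM in si-SRPX2. Each si-SRPX2 library was below its control, at 0.773, 0.866 and 0.884 of it, but the libraries differed more by number, and si-Control replicate 3 was below si-SRPX2 replicate 1. The siRNA log2 fold change was −0.27 ± 0.317 (edgeR, unadjusted p = 0.425), and it moved to −0.040 without si-Control replicate 1, to −0.056 without si-SRPX2 replicate 3 and to −0.51 without si-Control replicate 3. With the block it was −0.25 ± 0.0619 (unadjusted p = 0.00347, adjusted p = 0.409), and DESeq2 with the block called it lower (adjusted p = 0.0288). TXNRD1 had the largest difference of the 10 between replicates 1 and 3 among the genes higher in replicate 1, 0.92 ± 0.0764 (edgeR, adjusted p = 0.000372). Replicate 2 lay above the mean of replicates 1 and 3 by 0.26 ± 0.065 (edgeR, adjusted p = 0.00995). In each siRNA group, though, replicate 2 was below replicate 1 and above replicate 3. The replicate 2 call was lost without si-SRPX2 replicate 2 and without the siRNA term (edgeR, adjusted p = 0.0964). The pseudogene RPL18AP3 lies inside TXNRD1 on the same strand and took 3471 to 4135 reads.

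SRXN1 (ENSG00000271303, chromosome 20, 646615 to 653200) codes for sulfiredoxin, which restores overoxidized peroxiredoxins. Its level was 91.0, 126 and 64.9 CPM in si-Control and 92.5, 129 and 70.5 CPM in si-SRPX2. It was higher with si-SRPX2 in 3 of 3 pairs but by at most 1.09-fold, and the siRNA log2 fold change was 0.051 ± 0.304, and 0.059 ± 0.0541 with the block (adjusted p = 0.757). SRXN1 rose in replicate 2 by 0.69 ± 0.056 (edgeR, adjusted p = 3.88e-05) and was higher in replicate 1 than in replicate 3 by 0.44 ± 0.0666 (adjusted p = 0.00533). Its level followed GCLM most closely of all pairs among the 10, with a root mean square difference of 0.149 between their log2 CPM, each centred on its mean over the 6 libraries. Of 17 tested thioredoxins, peroxiredoxins and related genes, 6 were higher and 11 lower with si-SRPX2 and none was called. TXN, thioredoxin itself, was higher in replicate 1 than in replicate 3 by 0.66 ± 0.0732 (adjusted p = 0.00140), named after its values were seen.

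NQO1 (ENSG00000181019, chromosome 16, 69706996 to 69726668), the quinone reductase often used as the standard readout of NRF2, was counted at 749, 636 and 487 CPM in si-Control and at 792, 621 and 487 CPM in si-SRPX2. Same-numbered libraries lay close together in every pair, with folds of 1.06, 0.976 and 0.999. The difference between the siRNAs was 0.021 ± 0.233 on the log2 scale, and 0.015 ± 0.0568 with the block (adjusted p = 0.950). NQO1 was higher in replicate 1 than in replicate 3 by 0.66 ± 0.0698 (edgeR, adjusted p = 0.00118). It was the only one of the 10 that missed the threshold for replicate 2, at 0.037 ± 0.0601 (adjusted p = 0.635), and the sign of that difference turned under upper quartile scaling (−0.013).

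HMOX1 (ENSG00000100292, chromosome 22, 35380361 to 35390293) codes for heme oxygenase 1, which breaks heme into biliverdin, iron and carbon monoxide. It was counted at 90.8, 78.9 and 57.3 CPM in si-Control and at 129, 224 and 62.8 CPM in si-SRPX2. All 3 si-SRPX2 libraries exceeded their controls, by 1.42-fold, 2.84-fold and 1.10-fold, and si-SRPX2 replicate 3 was still below si-Control replicates 1 and 2. The siRNA log2 fold change of 0.87 ± 0.442 was the largest of the 10 (edgeR, unadjusted p = 0.0914). With the block it was 0.71 ± 0.214 (unadjusted p = 0.0101, adjusted p = 0.482). Leaving out pair 2 lowered the blocked value to 0.32, and leaving out pair 3 raised it to 1.02, where it passed the threshold (adjusted p = 0.00216).

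The HMOX1 value between replicate numbers rested on 1 library. Replicate 2 was higher than replicates 1 and 3 by 0.77 ± 0.221 (edgeR, adjusted p = 0.0198), by 0.13 within si-Control alone and by 1.31 within si-SRPX2 alone, and without si-SRPX2 replicate 2 the difference was 0.13 (adjusted p = 0.375). The call was also lost without si-SRPX2 replicate 1, without the expression filter, without the siRNA term and in DESeq2. Between replicates 1 and 3 the difference was 0.83 ± 0.259 (adjusted p = 0.0658). Leaving out 1 library moved it from 0.43 without si-SRPX2 replicate 3 to 1.30 without si-Control replicate 3, and it passed the threshold in the latter case and without either replicate 2 library. A test of whether the siRNA difference was the same in replicate 2 as in the others, added after the pairs were seen, gave 1.19 for HMOX1 (edgeR, adjusted p = 8.09e-05), in a test that called 81 genes (0.608%). With 1 pair for replicate 2 and 1 residual degree of freedom this test leans on the spread borrowed from other genes and has no replicate of the pair itself, and none of the other 9 genes passed it (adjusted p of at least 0.878).

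Genes for iron and heme handling were listed beside HMOX1. Of 8, all tested, 2 were higher and 6 lower with si-SRPX2 without a call, with a median of −0.094. BLVRA, which turns biliverdin into bilirubin, was at −0.12 ± 0.157, and TFRC, the transferrin receptor, at 0.23 ± 0.360. FTH1, the ferritin heavy chain, fell in replicate 2 by −0.82 ± 0.0807 (edgeR, adjusted p = 9.11e-05), while TFRC rose by 0.91 ± 0.0657 (adjusted p = 2.31e-05).

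SOD2 (ENSG00000112096, chromosome 6, 159669069 to 159727353) codes for the manganese superoxide dismutase of mitochondria and is a well-known target of NF-kappaB. Its level was 1891, 391 and 1949.7 CPM in si-Control and 1396, 317 and 1548 CPM in si-SRPX2, and the highest library was 6.16 times the lowest, the widest range of the 10. Both replicate 2 libraries were far below the other 4. SOD2 fell in replicate 2 by 4.77-fold, −2.25 ± 0.072 on the log2 scale (edgeR, adjusted p = 4.44e-06), and by rank of p it was number 2 of all 13317 genes in that contrast. Leaving out each library in turn kept the difference between −2.29 and −2.21. Replicates 1 and 3 differed by only −0.097 ± 0.0739 (adjusted p = 0.407).

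Within each pair SOD2 was lower with si-SRPX2, at 0.738, 0.809 and 0.794 of its control, a narrow spread beside the 6.16-fold range over libraries. Without the block the log2 fold change was −0.38 ± 0.744 (edgeR, unadjusted p = 0.630) and its sign turned without si-SRPX2 replicate 2 (0.062). With the block it was −0.36 ± 0.0605 (unadjusted p = 0.000332, adjusted p = 0.238), the smallest blocked p of the 10, and DESeq2 with the block called it (adjusted p = 9.01e-06). WTAP overlaps SOD2 on the other strand with 5670 to 6992 reads.

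**Figure D2:**
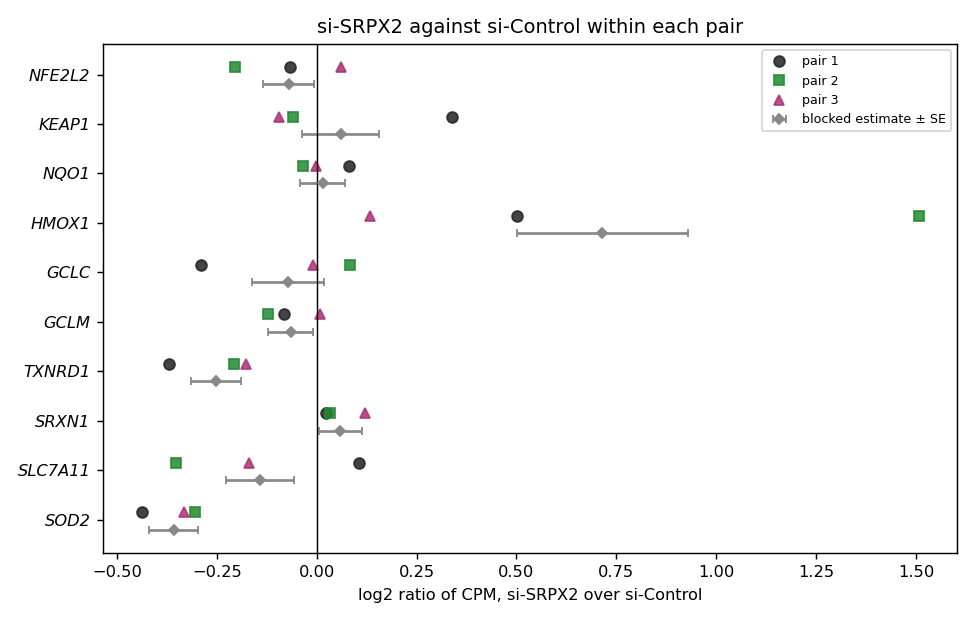
Log2 ratio of CPM, si-SRPX2 over si-Control (horizontal axis), for each of the 10 genes in pairs 1, 2 and 3, with the edgeR estimate from the fit with replicate block and its standard error as grey diamonds. SOD2 and TXNRD1 lie left of 0 in 3 of 3 pairs, and the HMOX1 pairs spread from 1.10-fold to 2.84-fold.

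Most other NF-kappaB genes listed were low in the same libraries as SOD2, but the list was chosen with earlier results of these data known. Of 14 listed genes, which do not include SOD2, 13 were tested, and 10 fell and none rose in replicate 2, with a median of −1.32, where 25.5% of all tested genes fell. IL6 was at −3.27 ± 0.132 and CXCL8, an attractant of neutrophils, at −2.26 ± 0.139. With si-SRPX2, 12 of the 13 were lower, with a median of −0.43, 1 of them at an unadjusted p under 0.05 and none called. With the block 12 of 13 were lower again, with a median of −0.41, and 8 had an unadjusted p under 0.05, beside 4.89% of tested genes that were lower at that p, and none was called by edgeR and 3 by DESeq2. NFKBIA, the inhibitor that NF-kappaB induces itself, was at 107, 45.9 and 120.4 CPM in si-Control and 65.8, 31.6 and 103 CPM in si-SRPX2, lower in 3 of 3 pairs, and was named after its values were seen.

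Among the other genes that remove superoxide and peroxide, 6 of 7 were tested. CAT, catalase, fell in replicate 2 by −0.98 ± 0.058 (edgeR, adjusted p = 1.20e-05), and SOD1, the cytosolic dismutase, differed between the siRNAs by −0.092 ± 0.140. Of 11 genes listed as sources of superoxide or peroxide, the NADPH oxidase and dual oxidase families, 8 were in the table and only CYBA and NOX5 were tested.

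Across replicate numbers 9 of the 10 genes passed the threshold for replicate 2, 7 higher and 2 lower, in a contrast where 50.9% of all tested genes did, 25.4% higher and 25.5% lower. The 7 above the mean of replicates 1 and 3 were KEAP1, HMOX1, GCLC, GCLM, TXNRD1, SRXN1 and SLC7A11, with a median over all 10 genes of 0.38. Of these, TXNRD1 in both siRNA groups and HMOX1 in si-Control were lower in replicate 2 than in replicate 1. The replicate 2 libraries of 7 of the 10 did not overlap the other 4 libraries, beside 55.6% of tested genes. Leaving out si-SRPX2 replicate 2 keeps 1 library of that number. The calls of NFE2L2, GCLC, HMOX1 and TXNRD1 were then lost, and the HMOX1 difference moved from 0.77 to 0.13. Between replicates 1 and 3 the number was 5, with 4 higher in replicate 1 and 1 lower, where 16.1% of tested genes passed, and the replicate 1 libraries of 9 of the 10 did not overlap those of replicate 3 (60.7% of tested genes).

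**Figure D3:**
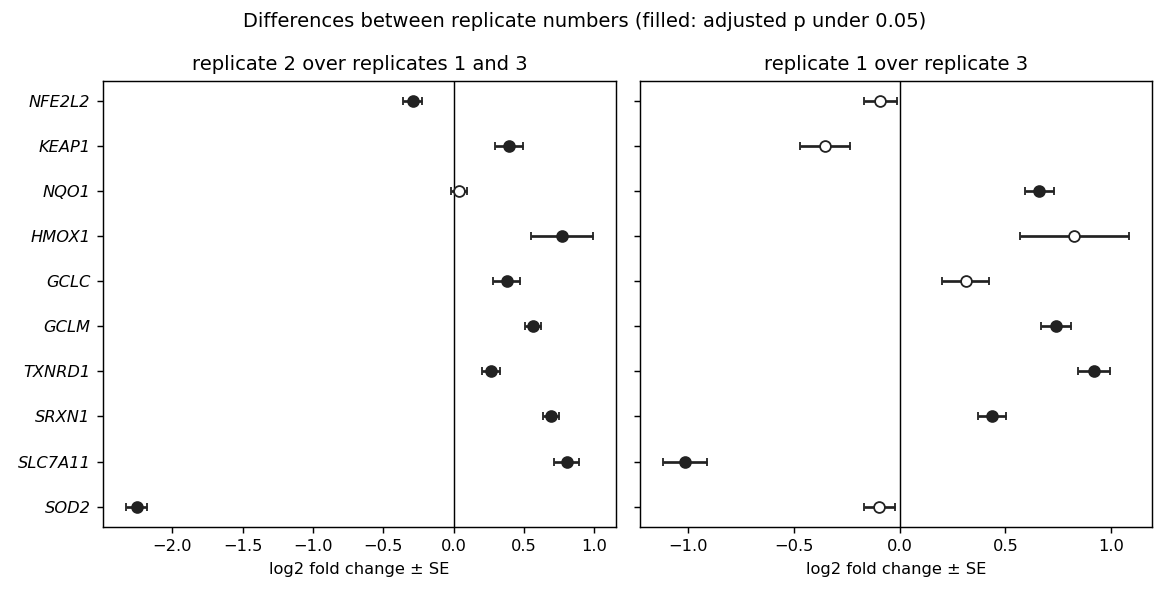
Log2 fold change with its standard error (horizontal axes) of the 10 genes for replicate 2 over replicates 1 and 3 and for replicate 1 over replicate 3, from 1 edgeR fit with siRNA as a term. Filled circles passed an adjusted p of 0.05: 9 of the 10 on the left, where SOD2 is at −2.25, and 5 of the 10 on the right, where SLC7A11 is the only filled one below 0.

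The replicate number took the largest share of the spread for each of the 10. It held 99.1% of the variance of log2 CPM for NQO1, 99.0% for SRXN1, 98.9% for GCLM and 97.2% for SOD2, beside a median of 84.1% over tested genes. SLC7A11 was at 95.8% and TXNRD1 at 89.8%, while GCLC at 86.3%, KEAP1 at 84.2% and NFE2L2 at 83.0% were near that median. HMOX1 was lowest at 52.8%, with 28.4% for the siRNA, where the median tested gene had 4.04%. These shares describe 6 libraries and were not tested. They are raw shares, not adjusted for the replicate number having more degrees of freedom than the siRNA.

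**Figure D4:**
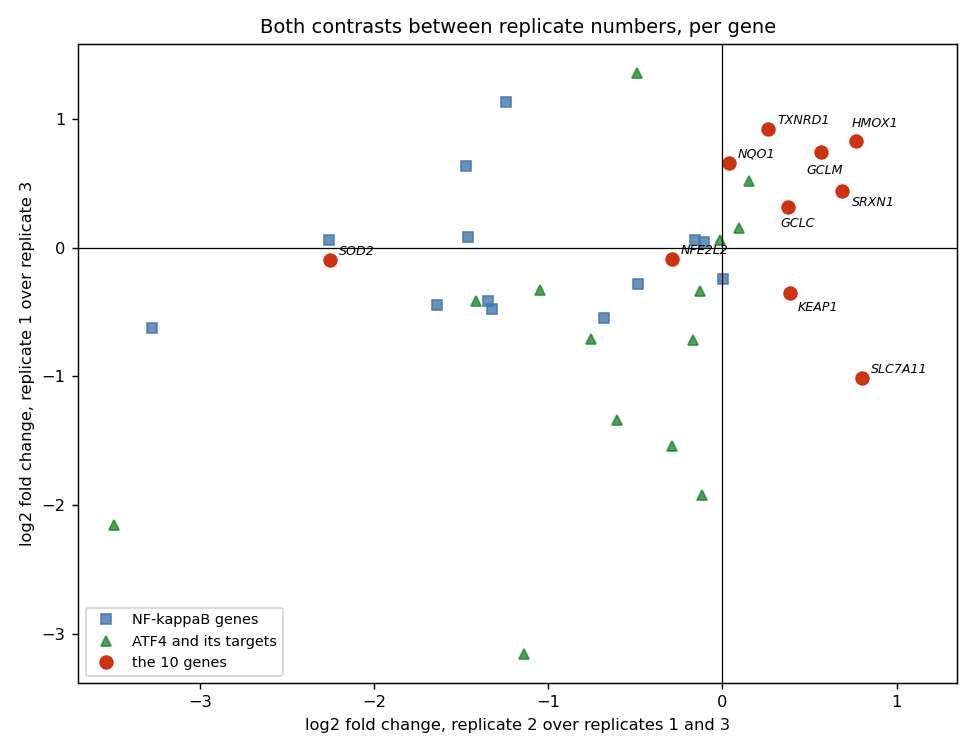
Each point is a gene, placed by its log2 fold change for replicate 2 over replicates 1 and 3 (horizontal axis) and for replicate 1 over replicate 3 (vertical axis), with the 10 genes as labelled red circles, NF-kappaB genes as blue squares and ATF4 and its targets as green triangles. SOD2, at −2.25 on the horizontal axis, lies among the NF-kappaB genes, and SLC7A11 is at 0.80 and −1.02.

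Centred log2 CPM over the 6 libraries was compared between each of the 10 and all other tested genes. NQO1 was nearest to UGP2, with a root mean square difference of 0.0249, and 49 genes lay within 0.1 of it. NFE2L2, whose level varied little, had 513 genes within 0.1, LINC02210 nearest, KEAP1 had 114 with NBN nearest, GCLC had 238 with DRAP1 nearest, and SRXN1 had 82 with INTS13 nearest. Fewer genes were near GCLM, 9 with CCND3 nearest, and TXNRD1, 5 with PDLIM2 nearest. On log2(FPKM + 1) the numbers were 843 for NFE2L2, 518 for GCLC and 2 for TXNRD1, and other genes were nearest to NFE2L2 (ZNRF2), KEAP1 (RABL3), GCLC (ATP5MD) and TXNRD1 (CIB1, also with upper quartile factors). No gene lay within 0.1 of HMOX1, SLC7A11 or SOD2. Their nearest were EREG at 0.243, FAM111A at 0.149 and PDZK1IP1 at 0.137. SOD2 was farther from each of the other 9 than any pair among those 9 except HMOX1 and SLC7A11, and its own nearest among them was NFE2L2 at 0.938.

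Detoxification enzymes and exporters, many of them known targets of NRF2, gave no call between the siRNAs in edgeR. Of 17 listed, 14 were tested. With the block all 14 had a negative log2 fold change, where 6770 of 13317 tested genes did. The median was −0.22 beside −0.0024 for all tested genes. Some were within their standard error of 0, such as ABCC4 at −0.0051 ± 0.0540 and GSTP1 at −0.029 ± 0.0549. The 14 values come from the same 3 pairs, so they are not independent. The number at an unadjusted p under 0.05 was 7, beside 4.89% of tested genes that were lower at that p, and none was called by edgeR and 1, TRIM16L, by DESeq2. Without the block 13 of the 14 were lower with a median of −0.23 and 0 had an unadjusted p under 0.05. The blocked number lower was 12 of 14 without pair 2, without pair 3 and in limma, and without pair 3 edgeR called 3 of them, where it called 213 of all tested genes. The 2 listed genes of smallest p without the block were UGDH, UDP-glucose dehydrogenase, at −0.24 ± 0.200 and TRIM16 at −0.29 ± 0.278.

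AKR1B1, aldose reductase, was at 4369, 1178 and 3284 CPM in si-Control and 2613, 816 and 2902 CPM in si-SRPX2, lower in each pair, with a blocked log2 fold change of −0.48 ± 0.102 (edgeR, unadjusted p = 0.00141, adjusted p = 0.340). TRIM16L was at −0.30 ± 0.0602 with the block (adjusted p = 0.309) and is a near copy of TRIM16, so the reads of the pair may be split between them. Both were named after their values were seen. Beside these, the blocked value of NQO1 was 0.015 ± 0.0568, and HMOX1 was higher in 3 of 3 pairs.

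**Figure D5:**
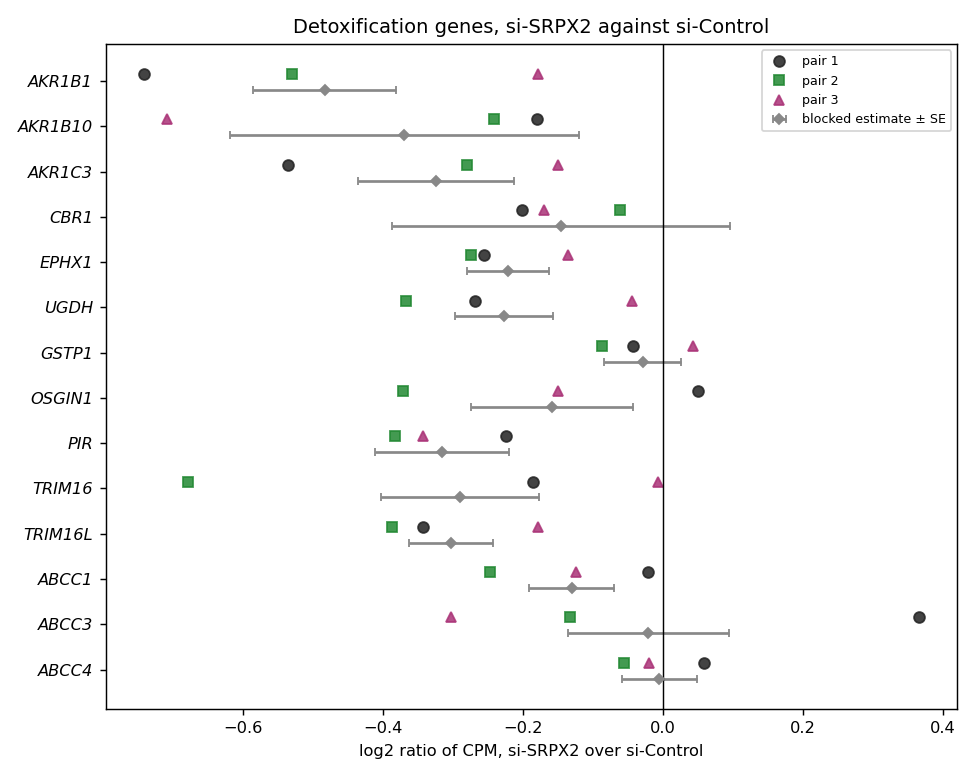
Log2 ratio of CPM, si-SRPX2 over si-Control (horizontal axis), for the 14 tested detoxification genes in pairs 1, 2 and 3, with the edgeR estimate from the fit with replicate block and its standard error as grey diamonds. All 14 diamonds lie left of 0, some within their standard error of it, with a median of −0.22.

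The detoxification genes also differed between replicate numbers. In replicate 1 against replicate 3, 7 of the 14 were called higher and 1 lower, beside 8.81% and 7.3% of all tested genes. Their median was 0.50. The 1 called lower was CBR1, at −2.89 ± 0.307 (edgeR, adjusted p = 0.00118). Of the 10 genes, NQO1, GCLM, TXNRD1 and SRXN1 were called higher in this contrast and SLC7A11 lower, at −1.02. TRIM16L differed by 0.97 ± 0.0743 (edgeR, adjusted p = 0.000262), and PIR, an iron-binding nuclear protein, by 1.09 ± 0.118 (adjusted p = 0.00129). TKT, transketolase, is not one of the 14 but was listed with the NADPH-producing enzymes. It was at 0.85 ± 0.0721 (edgeR, adjusted p = 0.000400). CBR1, PIR and TKT were named for this contrast after their values were seen. In replicate 2, 8 of the 14 detoxification genes fell and 1 rose, beside 25.5% and 25.4% of all tested genes, with a median of −0.28. ABCC3, an exporter of glutathione conjugates, fell there by −2.71 ± 0.139 (adjusted p = 7.96e-06), and EPHX1, an epoxide hydrolase, by −0.96 ± 0.0646 (adjusted p = 1.85e-05).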

How the data were processed

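RNA sequencing was done on 6 TPC1 libraries. The authors deposited raw read counts per gene and FPKM. StringTie 2.1.6, edgeR and DESeq2 are named in the submitters' processing notes. Aligner, build and counting strand: not given in the sources used here. Positions are on GRCh38, since GENCODE release 29 holds 30496 of the table's 31348 IDs. Columns of the authors' own comparisons were not used.

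Counts were fitted in R 4.3.3 with edgeR 4.0.16 (TMM, quasi-likelihood test) over the 13317 genes whose FPKM averaged 0.5 or more, with Benjamini-Hochberg adjustment over all of them and calls at 0.05. The siRNA comparison had no covariate. Replicate contrasts used siRNA as a term. Deviations from the group means, compared over genes, correlated at 0.640, 0.822 and 0.705 between libraries sharing a number and at no more than 0.117 otherwise, so the replicate block is printed too. The pairing comes from the labels' numbers and these values. CPM were scaled by TMM factors. Standard errors and p-values describe these libraries only, and the fits borrow part of the spread from other genes. In the replicate contrasts the spread is that between libraries sharing a number. It does not measure how much replicate numbers vary. Limma 3.58.1 on log2(FPKM + 1) or log2(FPKM + 0.1), DESeq2 1.42.0, other factors, other filters and leaving out libraries were alternatives, and the blocked versions with other factors, no filter or limma and the siRNA by replicate 2 test were added after seeing the data. Fits were also run on simulated counts, with changes larger than most siRNA differences given here, so those runs do not measure recovery at such sizes.

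The 10 genes and the lists were chosen with earlier results of these data known. Further named genes are up to 2 of each list with the smallest p for the siRNA comparison without the block and up to 2 for replicate 2, and the nearest gene to each of the 10. Promoter windows came from a set of RefSeq starts in which HMOX1 and SLC7A11 had no entry, a gap of the set used and not of RefSeq as such. A further fixed list is not reported here.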

Additional observations from a re-analysis of the deposited data

Results flagged for a closer look

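The siRNA difference of HMOX1 was larger in the replicate 2 pair than in the pairs of replicates 1 and 3 by 1.19 on the log2 scale, in a test of that difference that was added after the pairs were seen (edgeR, adjusted p = 8.09e-05, 1 residual degree of freedom). Replicate 2 is 1 library of each siRNA, so the value describes these libraries and has no replicate of the pair behind it. The pairs were 1.42-fold, 2.84-fold and 1.10-fold.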

How the results depend on the processing

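The siRNA call count over all genes was 0 as reported, 3 in DESeq2, 6 with the replicate block, 89 with the block in DESeq2 (2 of the 10 genes), 6 with the block and DESeq2 size factors, 5 with the block and upper quartile factors, and 0 to 213 with libraries or pairs left out (0 to 1 of the 10). For replicate 2, 5 to 9 of the 10 were called with libraries left out. For replicate 1 against replicate 3 the count of genes was 396 with no expression filter, 1321 in limma on log2(FPKM + 1), 1193 on log2(FPKM + 0.1), and 618 to 2838 with libraries left out (5 to 8 of the 10). CYBA turned to 0.016 in limma with either pseudocount and with the block, and NQO1 in replicate 2 to −0.013 with upper quartile factors. With libraries or pairs left out, siRNA values that changed sign ranged from −0.17 to 0.060 for NFE2L2, −0.16 to 0.20 for KEAP1, −0.17 to 0.18 for NQO1, −0.25 to 0.050 for GCLC, −0.32 to 0.14 for GCLM, −0.20 to 0.32 for SRXN1, −0.53 to 0.14 for SLC7A11, −0.82 to 0.062 for SOD2, −0.22 to 0.031 for BLVRA, −0.24 to 0.15 for CYBA, −0.84 to 0.27 for DDIT4, −0.45 to 0.030 for PSAT1, −0.14 to 0.60 for TFRC, −0.37 to 0.060 for GLRX, −0.22 to 1.11 for NOX5 and −0.66 to 0.051 for TRIM16L. NQO1 in replicate 2 ranged from −0.00041 to 0.075 and NFE2L2 between replicates 1 and 3 from −0.19 to 0.0045. The cause of these changes was not tested. The block changed no call of the 10 in edgeR.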
